A study of Homo sapiens with 12 samples.

Results

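The transcripts described here are those of 2 folding machines. They are the 8 subunits of the cytosolic chaperonin CCT (also called TRiC) that the array reads under the symbols TCP1, CCT2, CCT3, CCT4, CCT5, CCT6A, CCT7 and CCT8, together with HSPD1 and HSPE1, the mitochondrial HSP60 chaperonin and its HSP10 lid. The members were taken by gene symbol, 10 genes of 12760 genes tested, and 20 probes carried these symbols in the array annotation. All 20 passed the filter on dim probes, and the brightest probe of each gene was detected on all 12 arrays.

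The study hybridised RNA from SNU-5 and MKN45, human gastric cancer cell lines with an amplified MET gene, to Illumina HumanHT-12 v4 arrays. Both lines were measured after 24 h with 1 µM crizotinib, which blocks the kinase of the MET receptor, and without it. This gave 4 groups of 3 arrays, named here SNU-5 crizotinib, SNU-5 control, MKN45 crizotinib and MKN45 control. SNU-5 was grown in Iscove's medium and MKN45 in RPMI-1640, so line and medium cannot be told apart, and the dose comes from the sample records, since the paper's text does not name it for the arrays. No source says that the 3 replicates of a group were separate cultures, so p-values measure the spread between these arrays, which may be technical.

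CCT is a double ring in which each ring holds one copy of every subunit, and it uses ATP to close over newly made proteins, above all actin, the tubulins and many WD40-repeat proteins. In yeast the subunits fall into a side of the ring that binds ATP tightly and a side that binds it weakly, and folding is driven mainly from the tight side. HSPD1 forms a related barrel in the mitochondrial matrix, which HSPE1 caps while an imported protein folds inside.

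HSPD1 and HSPE1 are neighbours that are transcribed away from each other. HSPD1 lies on the minus strand at chr2:197486584-197500274 and HSPE1 on the plus strand at chr2:197500379-197503449 (GRCh38.p14, RefSeq), with 104 bases between their annotated starts. Those bases are shown because the start of each gene faces this one stretch, and both genes fell in both lines. They are given on the plus strand, with HSPD1 to the left and HSPE1 to the right, and the capitals mark an E-box (CACGTG).
Between HSPD1 and HSPE1 (chr2:197500275-197500378): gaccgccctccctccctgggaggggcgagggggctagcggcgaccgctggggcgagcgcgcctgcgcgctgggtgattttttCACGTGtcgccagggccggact
This E-box was the only one found in the 12 member windows, counted in the HSPD1 window and again in the overlapping HSPE1 window, and 7.26% of 35116 RefSeq promoter windows of 300 bases held one. A further annotated HSPD1 start lies downstream, inside the span of the gene. The 30 bases that open its window are shown on the minus strand because they hold cores of the heat shock element in both arrangements, TTCNNGAA (in 7.74% of all windows) and GAANNTTC (in 6.77%). The capitals mark 3 overlapping matches.
HSPD1, before the downstream start (chr2:197500061-197500090): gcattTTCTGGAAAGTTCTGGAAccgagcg

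Windows were found for 9 of the 10 genes, with none for CCT6A. The CCT genes lie on separate chromosomes apart from CCT4 and CCT7, which are both on chromosome 2 but far apart. The 60 bases before the first start are shown for the CCT genes that fell at least 2-fold in SNU-5, each on its own strand and ending next to the start. The capitals mark a CCAAT box (CCAAT, in 34.6% of all windows) or an ETS core (CCGGAAG, in 10.3%), on either strand.
TCP1 (chr6:159789603-159789662, minus strand): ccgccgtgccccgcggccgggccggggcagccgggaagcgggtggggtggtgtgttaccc
CCT2 (chr12:69585399-69585458, plus strand): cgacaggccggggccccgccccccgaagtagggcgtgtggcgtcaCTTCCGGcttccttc
CCT3 (chr1:156338293-156338352, minus strand): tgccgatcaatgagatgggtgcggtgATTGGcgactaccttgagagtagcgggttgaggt
CCT7 (chr2:73234248-73234307, plus strand): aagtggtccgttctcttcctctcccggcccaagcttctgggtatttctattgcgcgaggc
No searched motif was common to all CCT genes. Over the full windows the CCAAT box was found for TCP1, CCT2, CCT3 and CCT8, the ETS core for CCT2, GAANNTTC for TCP1 and CCT2, and TTCNNGAA for CCT4. The letters TATAAA were in 0 of the 12 member windows and in 11.5% of all windows. The GC content of the member windows lay between 57.7% and 70.7%, with a median of 58.7% over all windows. A match is a description of the letters only.

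Levels below are background-corrected, quantile-normalized log2 signals, and a level can be compared between arrays for one probe but not between probes. A change is the mean of the crizotinib arrays minus the mean of the control arrays on the log2 scale, so that -1 is a 2-fold fall. A gene passed where the adjusted p of the limma fit, taken over all tested probes, was under 0.05. In these bulk samples a smaller share of cells with a transcript and less of that transcript in each cell cannot be told apart.

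Every member fell with crizotinib in SNU-5, and the fitted change was also negative for every member in MKN45. In SNU-5 all 10 passed as lower, where 17.2% of all genes did, and 0 passed as higher, where 18% did. In MKN45 7 passed as lower, where 17.9% of all genes did, and 0 as higher, where 17.9% did. The 3 that missed the threshold in MKN45 were CCT3, CCT6A and CCT8. The 7 genes lower in both lines compare with 10.1% of all genes.
In SNU-5 the members had a median change of -1.03, beside 0.02 for all genes, and in MKN45 one of -0.76, beside 0.00. With the study's stricter thresholds (p under 0.001, adjusted p under 0.05 and a 2-fold change), TCP1, CCT2, CCT3, CCT7 and HSPD1 were called lower in SNU-5 (5 of 10, with 7.46% of all genes) and CCT7, HSPD1 and HSPE1 in MKN45 (3 of 10, with 7.19%). These thresholds were applied to the limma fit. The methods' random variance test was also rebuilt here and run on the background-corrected signals, where they gave 4 members in SNU-5 and 3 in MKN45. Of the 23525 tested probes, the rebuilt test called 2322 in SNU-5 and 2986 in MKN45, in either direction. The paper reports fewer probes for each line, from its own quantile-normalized values. Every crizotinib array was below every control array for 9 members in SNU-5 (22.9% of all genes) and for 8 in MKN45 (24.4%). The exceptions were CCT6A in both lines and CCT3 in MKN45.

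**Figure D1:**
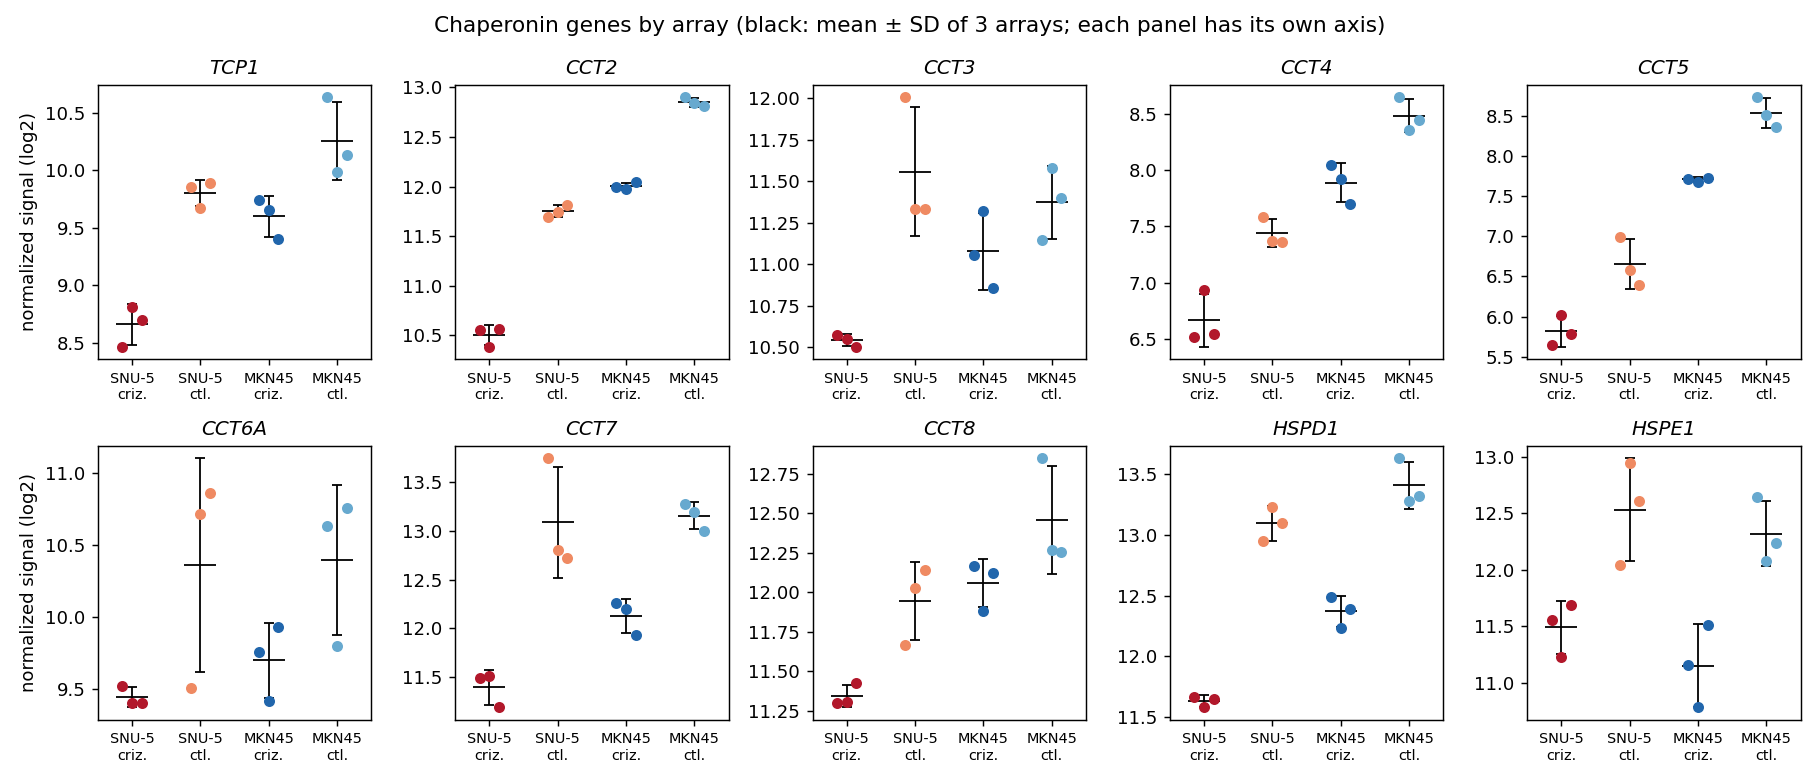
Normalized log2 signal (vertical axes, one scale per panel) of the brightest probe of each gene on each of the 12 arrays, in the order SNU-5 crizotinib, SNU-5 control, MKN45 crizotinib and MKN45 control. Points are arrays and black bars the mean ± SD of 3. CCT2 shows 4 groups that do not overlap, whereas for CCT6A the lowest SNU-5 control array, at 9.51, lies among the crizotinib arrays.

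The mitochondrial pair fell in both lines. HSPD1, the HSP60 barrel subunit, measured 11.67, 11.58 and 11.65 in SNU-5 crizotinib arrays, against 12.95, 13.23 and 13.10 in SNU-5 controls. In MKN45 it measured 12.49, 12.23 and 12.39 with crizotinib, against 13.63, 13.28 and 13.32 in controls. The groups were apart in both lines, and the changes were -1.46 ± 0.15 (SE, adjusted p = 8.17e-06) in SNU-5 and -1.04 ± 0.15 (adjusted p = 1.39e-04) in MKN45, which is 2.76-fold and 2.05-fold lower.
HSPE1, the HSP10 cap, measured 11.56, 11.23 and 11.69 in SNU-5 crizotinib arrays, against 12.04, 12.94 and 12.61 in SNU-5 controls. In MKN45 it measured 11.15, 10.78 and 11.51 with crizotinib and 12.64, 12.08 and 12.24 in controls. Again no crizotinib array reached a control array of its line. The changes were -1.04 ± 0.25 (adjusted p = 0.00635) in SNU-5 and -1.17 ± 0.25 (adjusted p = 0.00286) in MKN45.
The other HSPE1 probe gave -1.15 and -1.28, both past the threshold. HSPD1 had 3 other probes, which did not all move alike. One fell, by a change of -1.09 in SNU-5 (adjusted p = 0.00297) and -0.67 in MKN45 (adjusted p = 0.0427). Another read 5.10 in SNU-5 control replicate 1, against 7.99 and 8.44 in the other SNU-5 controls, and with changes of -0.79 and -1.50 it passed in neither line (adjusted p = 0.387 and 0.0858). The dimmest was detected on 4 of the 12 arrays and gave 0.05 and 0.04. Pseudogene copies of HSPD1 and other members exist elsewhere in the genome, and whether a probe reads them was not tested.

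Among the subunits that bind ATP tightly in yeast (TCP1, CCT2, CCT4 and CCT5), all 4 passed as lower in both lines, where 10.1% of all genes did. TCP1, the alpha subunit, measured 8.47, 8.81 and 8.70 in SNU-5 crizotinib arrays, against 9.85, 9.68 and 9.89 in controls. The groups were apart, with a change of -1.14 ± 0.18 (adjusted p = 3.49e-04). MKN45 had 9.74, 9.66 and 9.40 with crizotinib and 10.63, 9.99 and 10.13 in controls, a change of -0.65 ± 0.18 (adjusted p = 0.015) that missed the threshold without MKN45 crizotinib replicate 3 or control replicate 1 (adjusted p = 0.059 and 0.06). Its other 2 probes gave -1.42 and -1.14 in SNU-5 and -0.80 and -0.72 in MKN45, and both passed in both lines.
CCT2, the beta subunit, had the smallest SE of all members in the fit, though not the smallest spread in every group. SNU-5 read 10.55, 10.38 and 10.56 with crizotinib, against 11.69, 11.74 and 11.81 in controls. MKN45 read 11.99, 11.97 and 12.04 with crizotinib, against 12.90, 12.84 and 12.81 in controls. The falls of 2.38-fold (change -1.25 ± 0.13, adjusted p = 8.11e-06) and 1.80-fold (-0.85 ± 0.13, adjusted p = 1.93e-04) were several times the spread between arrays.
CCT4, the delta subunit, measured 6.51, 6.93 and 6.55 in SNU-5 crizotinib arrays, against 7.58, 7.37 and 7.36 in controls. MKN45 arrays gave 8.05, 7.92 and 7.70 with crizotinib and 8.65, 8.36 and 8.44 without. The groups did not overlap in either line, and the changes were -0.78 ± 0.16 (adjusted p = 0.00262) and -0.60 ± 0.16 (adjusted p = 0.0131). Without MKN45 crizotinib replicate 3 the MKN45 change had an adjusted p of 0.0524.
CCT5, the epsilon subunit, which is mutated in an inherited sensory neuropathy, had its lowest levels in SNU-5. There it read 5.65, 6.02 and 5.78 with crizotinib and 6.99, 6.58 and 6.39 in controls, with raw signals of 81.9 to 92.8 and 108 to 224. In MKN45 the values were 7.71, 7.68 and 7.73 with crizotinib, against 8.73, 8.50 and 8.36 in controls. The changes in SNU-5 and MKN45 were -0.84 ± 0.18 (adjusted p = 0.00258) and -0.82 ± 0.18 (adjusted p = 0.00282).

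On the side that binds ATP weakly (CCT3, CCT6A, CCT7 and CCT8), all 4 passed in SNU-5 and only CCT7 in MKN45. Of all genes, 17.2% and 17.9% passed as lower in these lines. The sides were not tested against each other. CCT6A missed in MKN45 with a change of -0.69 ± 0.32, while TCP1 and CCT4 passed with -0.65 ± 0.18 and -0.60 ± 0.16. CCT7, the eta subunit, had the largest fall of any member in SNU-5. It measured 11.49, 11.51 and 11.19 with crizotinib, against 13.75, 12.80 and 12.72 in controls, a 3.24-fold fall (change -1.69 ± 0.24, adjusted p = 1.16e-04). SNU-5 control replicate 1 was the high array, and without it the change was -1.39, a smaller fall than that of HSPD1 (-1.57). In MKN45 CCT7 measured 12.26, 12.19 and 11.93 with crizotinib and 13.27, 13.19 and 13.003 in controls (change -1.03 ± 0.24, adjusted p = 0.0045). Both other CCT7 probes passed in both lines, with changes of -1.20 and -1.27 in SNU-5 beside -1.04 and -0.92 in MKN45.
CCT3, the gamma subunit, measured 10.58, 10.55 and 10.51 in SNU-5 crizotinib arrays, against 12.00, 11.33 and 11.34 in controls. The change was -1.01 ± 0.20 (adjusted p = 0.00164), and without control replicate 1, the highest array, it was -0.79 (adjusted p = 0.00285). In MKN45 the groups overlapped, with 11.06, 11.32 and 10.86 under crizotinib and 11.14, 11.58 and 11.40 in controls (change -0.29, 95% interval -0.73 to 0.14, adjusted p = 0.314). The other CCT3 probe gave -0.96 (adjusted p = 0.00152) in SNU-5 and -0.38 (adjusted p = 0.149) in MKN45.
CCT8, the theta subunit, had the smallest fall in SNU-5. It read 11.30, 11.30 and 11.42 with crizotinib and 11.67, 12.03 and 12.14 in controls, a change of -0.60 ± 0.19 (adjusted p = 0.0258). In MKN45 it read 12.17, 11.88 and 12.12 with crizotinib, against 12.85, 12.27 and 12.26 in controls. These arrays did not overlap, yet the change of -0.40 (95% interval -0.81 to 0.00) did not pass (adjusted p = 0.129). The SNU-5 call was lost when any of 4 SNU-5 arrays was left out, crizotinib replicates 1 or 2 or control replicates 2 or 3 (adjusted p between 0.0751 and 0.0881).
CCT6A, the zeta subunit, was the least certain member. SNU-5 crizotinib arrays read 9.52, 9.41 and 9.40, against 9.51, 10.71 and 10.86 in controls, so control replicate 1 sat with the treated arrays. The change was -0.91 ± 0.32 (adjusted p = 0.0472), and -1.34 without that control (adjusted p = 6.81e-04), while leaving out any of 10 other arrays lost the call (adjusted p between 0.0509 and 0.163). In MKN45 the arrays read 9.76, 9.42 and 9.93 with crizotinib and 10.63, 9.80 and 10.76 in controls, and the change of -0.69 ± 0.32 did not pass (adjusted p = 0.129), though it did without SNU-5 control replicate 1 or MKN45 control replicate 2 (adjusted p = 0.0215 for the first). The second CCT6A probe gave -0.56 and -0.57 and passed in neither line (adjusted p = 0.153 and 0.138).

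**Figure D2:**
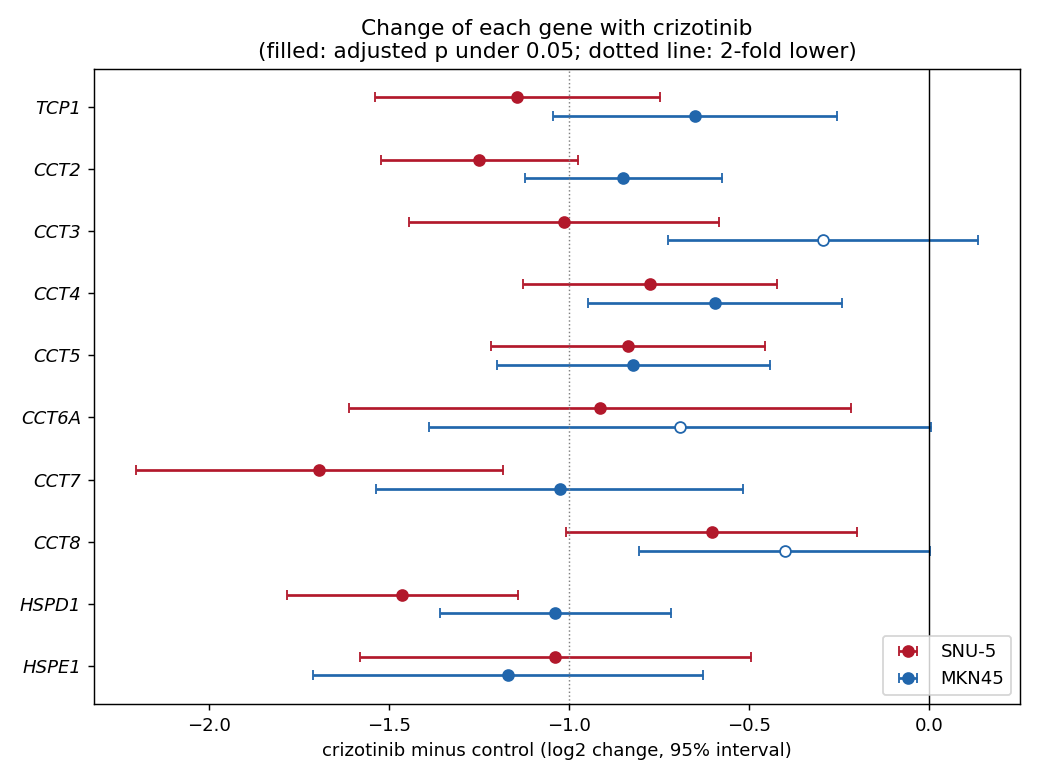
Crizotinib minus control change of each gene (horizontal axis, log2, with 95% interval from the limma fit) in SNU-5 and MKN45. Filled points passed at an adjusted p under 0.05, and the dotted line marks a 2-fold fall. All 20 estimates lie below 0, and the 3 open points are CCT3, CCT6A and CCT8 in MKN45.

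The MKN45 change was subtracted from that of SNU-5 to test the difference between the lines directly. Of the members 0 passed in the limma fit, where 12% of all genes did, and the unadjusted p was under 0.05 for CCT2 and CCT3. The most negative differences were those of CCT3 (-0.72 ± 0.28, 95% interval -1.33 to -0.11, adjusted p = 0.14) and CCT7 (-0.67 ± 0.33, 95% interval -1.39 to 0.05, adjusted p = 0.257). CCT2 differed by -0.40 (95% interval -0.79 to -0.01, adjusted p = 0.201). The interval for CCT5 ran from -0.55 to 0.52, that for HSPE1 from -0.64 to 0.90 and that for CCT6A from -1.21 to 0.76. A call in one line and not in the other thus does not show a difference between them, and a missed threshold does not show that the lines responded alike.

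**Figure D3:**
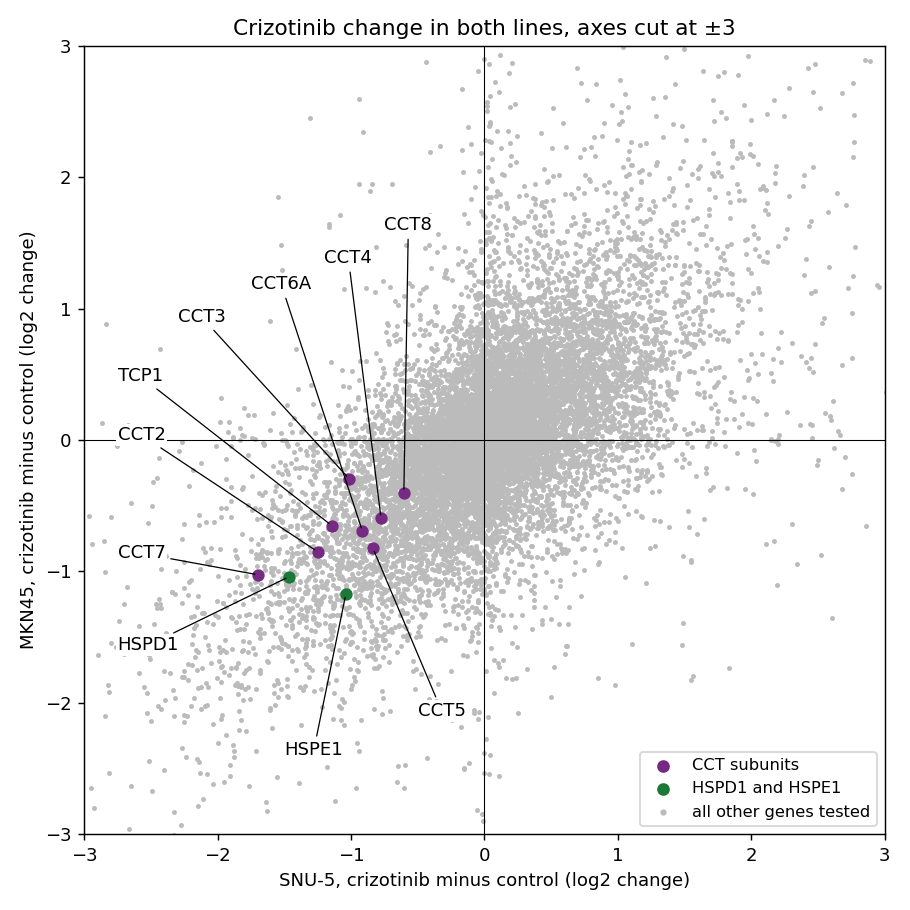
Crizotinib minus control change (log2) in SNU-5 (horizontal) and MKN45 (vertical) of the 12760 genes tested, one point per gene, with the members labelled. The axes end at ±3 and leave out 108 genes, none a member. All 10 members lie in the quadrant where both changes are negative, among many other genes.

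The lines also differed in the level of several subunits. Between untreated cells, SNU-5 was lower than MKN45 for CCT5, CCT2, CCT4 and CCT8 (4 of 10, with 22.5% of all genes lower), and higher for 0 (22.7%). CCT5 differed most, by -1.88 ± 0.18 (adjusted p = 1.55e-06), which is 3.67-fold. Untreated SNU-5 arrays read 6.39 to 6.99 for it, all below the 8.36 to 8.73 of untreated MKN45 arrays. CCT2 differed by -1.10 ± 0.13, CCT4 by -1.05 ± 0.16 and CCT8 by -0.51 ± 0.19 (adjusted p = 0.0444). CCT8 lost its call when any of 9 arrays was left out (adjusted p between 0.051 and 0.178) and with no filter on dim probes (adjusted p = 0.0678). TCP1 (-0.45, adjusted p = 0.0716), HSPD1 (-0.31, adjusted p = 0.115) and HSPE1 (0.21, adjusted p = 0.561) did not pass. The probes of several genes disagreed. The brightest CCT6A probe differed by -0.04 (adjusted p = 0.948), but the second differed by -0.98 and passed (adjusted p = 0.0113), with every untreated SNU-5 array below every untreated MKN45 array. The other TCP1 probes gave -0.12 and 0.42, and neither passed (adjusted p = 0.731 and 0.109). The other HSPE1 probe gave -0.40 and did not pass (adjusted p = 0.316). For CCT3 the brightest probe gave 0.18 and the other -0.17, and neither passed (adjusted p = 0.518 and 0.536).
Among crizotinib-treated cells, SNU-5 was lower than MKN45 by the brightest probe for 8 of the 10 genes, all but CCT6A and HSPE1 (24.3% of all genes were lower), and higher for 0 (24.1%). The second CCT6A probe was lower too, by a difference of -0.96 (adjusted p = 0.0112), where the brightest gave -0.26 (adjusted p = 0.581). CCT5 differed by -1.89, CCT2 by -1.50, CCT4 by -1.22 and TCP1 by -0.94. Of the other TCP1 probes, one also passed (-0.74, adjusted p = 0.0173) and the other gave 0.00 (adjusted p = 0.997). CCT7 and HSPD1 each differed by -0.74, CCT8 by -0.71 and CCT3 by -0.53 (adjusted p = 0.0452). One other CCT7 probe passed (-0.81, adjusted p = 0.016) and one did not (-0.57, adjusted p = 0.101). Of the other HSPD1 probes, one passed (-0.76, adjusted p = 0.0179), while those with -0.35 and 0.01 did not (adjusted p = 0.701 and 0.967). The call of CCT3 was lost when any of 7 arrays was left out, and that of CCT7 without SNU-5 crizotinib replicate 3 or MKN45 crizotinib replicates 1 or 2 (adjusted p between 0.061 and 0.0844). With no filter on dim probes both missed the threshold (adjusted p = 0.0776 for CCT3 and 0.0531 for CCT7), and with the mean over its probes HSPD1 did (difference -0.46, adjusted p = 0.128).
By the brightest probe, treated MKN45 arrays were all above untreated SNU-5 arrays for CCT2, CCT4 and CCT5. CCT2, for example, lay between 11.97 and 12.04 in crizotinib-treated MKN45, while it lay between 11.69 and 11.81 in SNU-5 controls. The order was the opposite for CCT3, CCT7, HSPD1 and HSPE1, and the arrays overlapped for TCP1, CCT6A and CCT8. HSPD1 lay between 12.23 and 12.49 in crizotinib-treated MKN45, and between 12.95 and 13.23 in SNU-5 controls. These 2 groups differ in both line and drug, and the share over all genes was not counted. The orders are thus a description of the arrays only. Averaged over the 8 subunits, each centred on its own mean over the 12 arrays, the level was -0.95 to -0.84 in SNU-5 crizotinib arrays and 0.07 to 0.17 in SNU-5 controls, and 0.01 to 0.13 in MKN45 crizotinib arrays and 0.61 to 0.89 in MKN45 controls. On the brightest HSPE1 probe the 2 lowest arrays were of crizotinib-treated MKN45, whereas the other HSPE1 probe averaged 9.14 in SNU-5 crizotinib arrays and 9.41 in MKN45 crizotinib arrays.

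**Figure D4:**
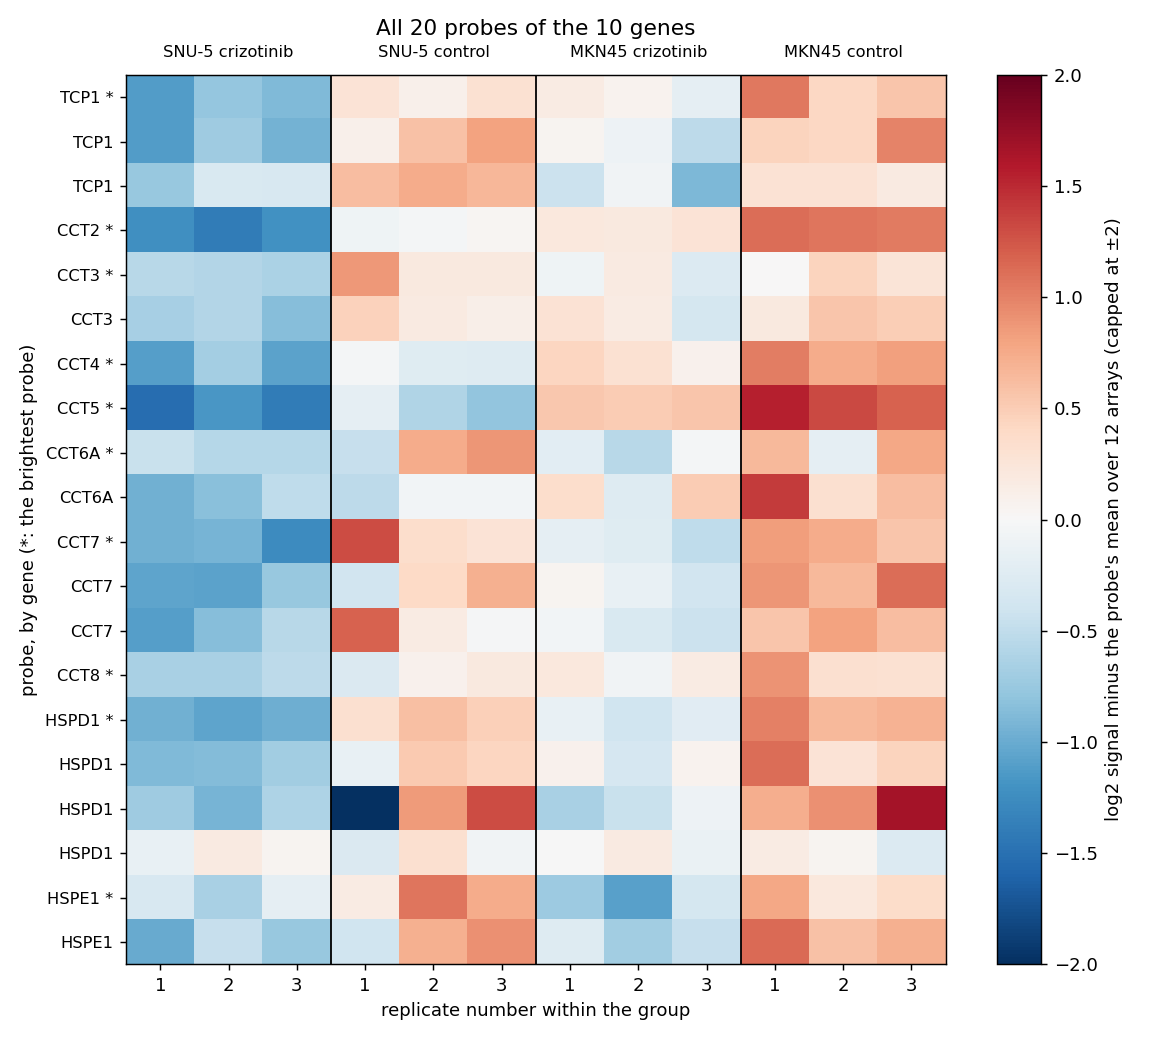
Each of the 20 member probes (rows, brightest probe of a gene marked by a star) on each of the 12 arrays (columns by group and replicate). Color is the log2 signal minus the probe's mean over the arrays, capped at ±2. SNU-5 crizotinib arrays are blue for nearly every probe, and the third of the other HSPD1 probes, detected on 4 arrays, shows almost no color.

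SNU-5 control replicate 1 stood apart. Its raw signals averaged 557, against 328 and 346 in the other SNU-5 controls, and its correlation with them was 0.964 to 0.974, while all other pairs within groups reached at least 0.986 when rounded to 3 digits. Without it all 10 members still passed as lower in SNU-5, and 8 did in MKN45. Detected probes ranged from 18998 to 20248 per array. Epithelial markers were detected on all 3 arrays of a group for 9 of 11 genes in SNU-5 crizotinib, 8 in SNU-5 control, 11 in MKN45 crizotinib and 10 in MKN45 control. Leukocyte, fibroblast and endothelial markers were so detected for 4 of 13 in both SNU-5 groups, 2 in MKN45 crizotinib and 3 in MKN45 control. Their summed raw signal was 5498 to 6210 in SNU-5 crizotinib and 3234 to 5580 in SNU-5 control arrays, and 1021 to 1332 and 1073 to 1111 in those of MKN45. Of that list PTPRC, CD3E, COL3A1, PDGFRB, PECAM1, CDH5 and VWF did not pass the filter on dim probes, while with crizotinib in SNU-5 DCN and LUM rose and CD14 and COL1A2 fell. Their part in the results was not tested.

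The genes that work with CCT did not all move with it. Of all genes, 17.2% fell and 18% rose in SNU-5, and 17.9% fell and 17.9% rose in MKN45. These shares stand beside the counts of each list that follows. Of 4 tested chaperonin-like genes, 2 rose in each line and 0 fell. CCT6B, a paralog of CCT6A known mainly from testis, rose by 1.44 ± 0.21 (adjusted p = 1.71e-04) in SNU-5 and by 1.39 ± 0.21 in MKN45 (adjusted p = 2.17e-04). BBS12, a chaperonin-like protein needed to assemble the BBSome of cilia, rose by 2.12 and 1.36. Its partners BBS10 (0.53 and 0.05) and MKKS (-0.23 and -0.16) did not pass. The list had medians of 0.99 in SNU-5 and 0.70 in MKN45, against 0.02 and 0.00 over all genes.
Prefoldin hands unfolded actin and tubulin to CCT, and phosducin-like proteins and others regulate it. Of 13 genes tested on a list made for these roles, 2 rose (PFDN5 and NOP53) and 1 fell (PDCD5, by 1.24) in SNU-5. NOP53 is neither a prefoldin nor a phosducin-like gene, and whether it acts on CCT was not tested. In MKN45 3 rose (PFDN5, NOP53 and UXT) and 3 fell (PDCD5, PFDN4 and TXNDC9), and the list had a median change of -0.08 in SNU-5, with -0.10 in MKN45. For so short a list these counts lay near the shares over all genes. The tubulin folding cofactors TBCA to TBCE and their regulator ARL2, 6 genes, gave 0 calls in SNU-5 and 1 in MKN45, TBCE, with a change of -0.54.
Clients of CCT mostly fell. Of 19 genes for actin, tubulins and WD40-repeat or related proteins, 11 fell and 2 rose (TUBB2B and VHL) in SNU-5, and 12 fell and 3 rose (TUBB2B, TUBB3 and VHL) in MKN45, with medians of -1.02 and -0.93. The alpha-tubulin gene TUBA1C fell, with a change of -1.34 ± 0.13 in SNU-5 and one of -1.55 ± 0.13 in MKN45, and so did TUBG1, the gamma-tubulin of the centrosome, with -1.34 and -1.70. Tubulin genes are close copies of one another, and whether each probe reads its gene alone was not tested.

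Other chaperones of the cytosol were mixed. Of 29 tested genes for HSP70, HSP90, HSP110, HSP40 and their helpers, 15 fell in each line, while 3 rose in SNU-5 (DNAJB4, HSPB1 and ST13) and 2 in MKN45 (FKBP5 and HSPB1). HSPH1, the HSP110 exchange factor, fell, with a change of -1.99 ± 0.26 in SNU-5 and one of -1.57 ± 0.26 in MKN45, and HSPA8, the constitutive HSP70, with -1.50 ± 0.17 and -1.07 ± 0.17. STIP1, which links HSP70 to HSP90, gave -1.64 and -1.29, and DNAJA1, an HSP40, gave -0.85 and -1.08, all past the threshold. The list's medians were -0.53 and -0.77.
In mitochondria, HSPD1 and HSPE1 receive proteins from the import channels and the matrix HSP70. Of 16 matrix chaperones and proteases tested, 9 fell and 3 rose in SNU-5, and 7 fell and 3 rose in MKN45, the 3 being HSCB, PMPCB and SPG7 in both. HSPA9, the matrix HSP70 (mortalin), fell, with a change of -0.75 ± 0.19 in SNU-5 and one of -1.14 ± 0.19 in MKN45, as did its exchange factor GRPEL1 (-1.56 and -1.24) and its HSP40 partner DNAJA3 (-1.15 and -0.83). Of 23 import genes 13 fell in each line, with 2 rising in SNU-5 (DNAJC15 and TOMM7) and 1 in MKN45 (TOMM7). TOMM40, the outer membrane channel, fell, with a change of -2.36 ± 0.15 in SNU-5 and one of -1.77 ± 0.15 in MKN45. Medians were -0.56 and -0.53 for the matrix list and -0.60 and -0.65 for the import list.

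**Figure D5:**
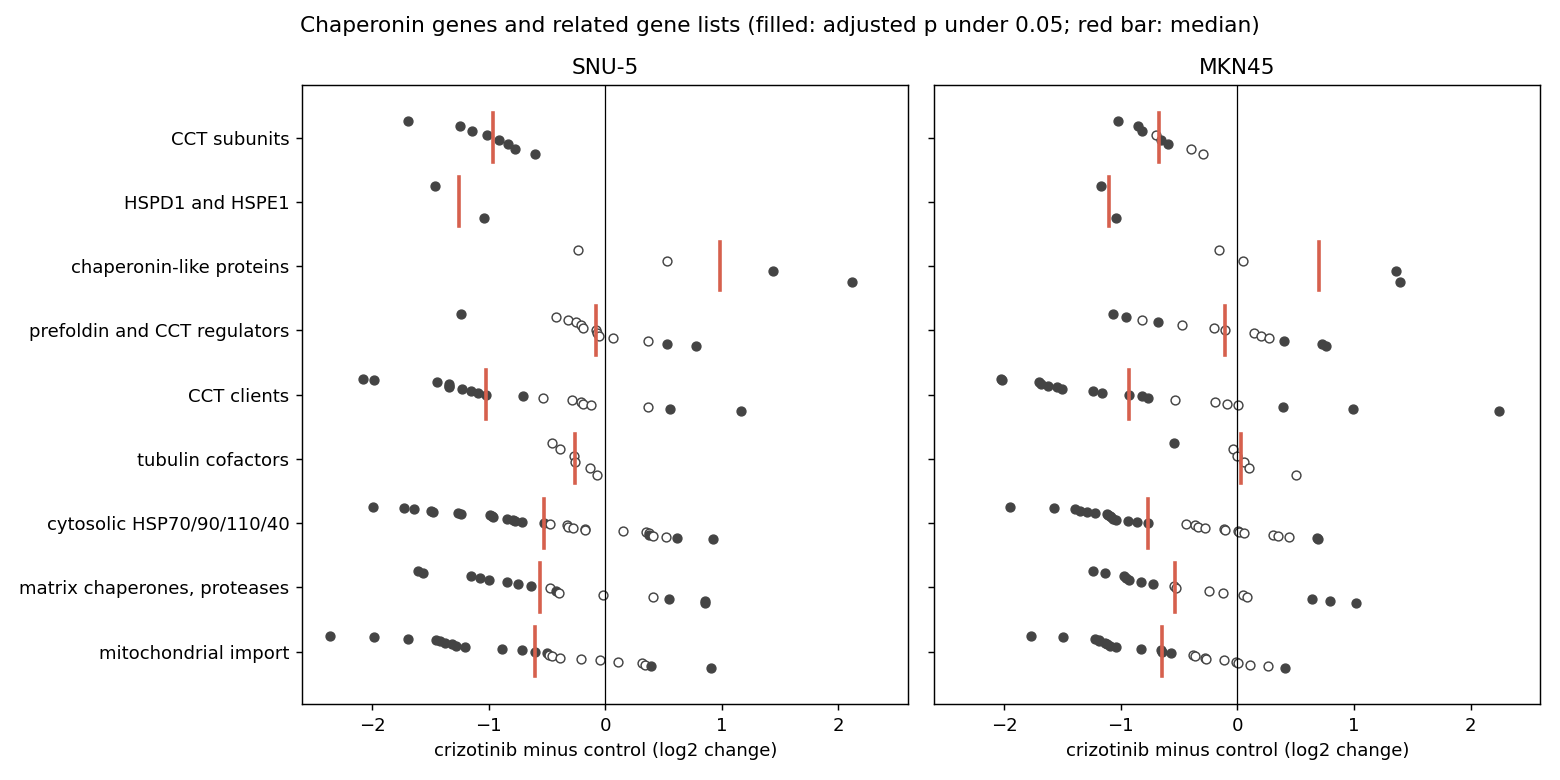
Crizotinib minus control change (horizontal axis, log2) of each gene of the CCT subunits, the HSPD1 and HSPE1 pair and 7 related lists, in SNU-5 and MKN45. Filled points passed at an adjusted p under 0.05, and red bars are medians. The CCT subunits, with medians of -0.96 and -0.67, lie wholly below 0, as does the mitochondrial pair.

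The genes whose levels over the 12 arrays most resembled the mean of the 8 CCT subunits, by Pearson's r as a description, were TFDP1 (0.992), CEACAM6 (0.989), RCC1 (0.988), PLEK2 (0.988) and TSR1 (0.987). For HSPD1 and HSPE1 they were DDX21 (0.980), EXOSC9 (0.975), UBE2T (0.975), INCENP (0.974) and DDIAS (0.973). The 12 arrays form 4 groups, and these values were taken over all of them. TFDP1 changed by -1.60 in SNU-5 and by -1.24 in MKN45, and DDX21 by -2.12 and -1.73. The mean profile of the mitochondrial pair correlated at 0.454 with CCT5 and at 0.848 with CCT6A, and that of the CCT subunits at 0.929 with HSPD1 and at 0.467 with HSPE1.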

How the data were processed

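The authors deposited, per the labels and file headers, raw signal intensities of 47323 probes for 12 Illumina HumanHT-12 v4 arrays, not normalized, with a detection p-value for each. They also deposited log2 values, which per the paper's methods were quantile normalized with limma. The scanner's settings are unknown here. The neqc function of limma 3.58.1 (R 4.3.3) was applied to the signals (normexp background correction from the detection p-values, offset 16, quantile normalization, log2). A probe was tested if its detection p was below 0.05 on 3 or more of the 12 arrays (23525 probes, 49.7%). A single limma fit (lmFit, eBayes) of the 4 group means had 8 residual and 5.17 prior degrees of freedom, with Benjamini-Hochberg adjustment over all tested probes. Probes were named through a table of the platform annotation, in which 30113 probes had 1 symbol, 8 several and 17202 none. A gene was represented by its tested probe with the highest mean signal, and all member probes are reported.

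Groups and replicate numbers came from the labels. The members, gene lists and tests were chosen with earlier results of these data known, and the motifs after the members' values were seen. From each list up to 4 genes, those of lowest adjusted p in one of the lines, could be named, with the 5 genes nearest each member profile. Further list genes were named, after their values were seen, where a count was 5 or fewer. Promoter windows and gene positions are those of RefSeq (GRCh38.p14). The fit was tested on simulated data.

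Same-numbered crizotinib and control arrays had deviations that correlated at 0.105, 0.0116 and 0.449 in SNU-5 and at 0.113, 0.329 and 0.111 in MKN45. All of these were positive, while differently numbered arrays gave -0.364 to 0.264 in SNU-5 and -0.315 to 0.142 in MKN45. The ranges overlapped, and the main fit did not take the numbers to pair the arrays, though a pairing is not excluded. As alternatives, the signals were quantile normalized with no background correction, the deposited values were used, the filter on dim probes was left off, and the lines were fitted separately. Further alternatives were a replicate block, the methods' random variance test, the study's thresholds, the mean over a gene's probes, array weights and leaving out each array in turn. With 3 arrays per group, the number of arrays limits the precision.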

Additional observations from a re-analysis of the deposited data

Results flagged for a closer look

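Of 110 tested genes in the related lists, 8 (7.27%, with 12% of all genes) had a crizotinib change that differed between the lines by the limma test of the difference itself (SNU-5 change minus MKN45 change, adjusted p under 0.05). The 3 tubulins were TUBB3 (-2.97, with -1.98 for SNU-5 and 0.99 for MKN45), TUBB2B (-1.08, with 1.17 and 2.24, detected on 9 of 12 arrays) and TUBA4A (1.53, with 0.37 and -1.16). Of the cytosolic chaperones, the inducible HSP70 genes HSPA1A (1.48, with 0.37 and -1.11) and HSPA1B (1.29, with 0.52 and -0.77) and the HSP90 gene HSP90AB1 (-1.73, with -1.72 and 0.01) differed. HSPA1A and HSPA1B are near-identical copies, and whether their probes tell them apart was not tested. Of the import genes, TIMM10 (-1.15, with -1.98 and -0.83) and PAM16 (-1.07, with -1.45 and -0.38) differed.

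Of 13 markers of other cell types on the array, 6 were tested. In the same test 5 of them differed, where 12% of all genes did. They were COL1A2 (-3.39, detected on 3 of 12 arrays), DCN (2.68, on 4), LUM (2.65, on 11), CD14 (-1.01, on 10) and COL1A1 (-0.83, on 8). A marker detected on 3 or 4 arrays passed the filter through those arrays alone, so the count cannot be read as a result. The changes of these 5 markers in MKN45 lay between -0.15 (LUM) and 0.47 (COL1A1).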

How the results depend on the processing

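As reported, 10 members were lower in SNU-5, with 7 in MKN45. The study's thresholds gave 5 and 3, and 3 in place of 8 for treated SNU-5 against treated MKN45. The line difference, with 0 members called, gave 1 without the filter (CCT2) and 2 with array weights (TCP1 and HSPD1). Leaving out each array in turn gave 8 to 10 in SNU-5, 5 to 8 in MKN45, 0 for the line difference, 3 to 5 between untreated lines and 6 to 8 between treated lines. CCT6A in SNU-5 also missed the threshold without the filter, in separate fits and in the methods' test (adjusted p = 0.131, 0.0968 and 0.09).

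No member's crizotinib change turned its sign in either line under these alternatives. For CCT5, the alternatives other than leaving out arrays gave as little as -0.56 for its SNU-5 change of -0.84. Its differences of -1.88 between untreated and -1.89 between treated lines were then as small as -1.54 and -1.37. Signs turned in differences between lines that were not called. For the difference between the lines' changes, CCT5 (-0.01) became 0.16 with quantile normalization alone and also with the deposited values, and ran from -0.15 to 0.16 with arrays left out. CCT6A ran from -0.65 to 0.076, and HSPE1 (0.13) from -0.12 to 0.34, with -0.31 under array weights. Between untreated lines, CCT3 (0.18) became -0.11 and CCT6A (-0.04) became 0.48 with array weights. HSPE1 (0.21) became -0.094 with the mean over its probes, the other of which gave -0.40. With arrays left out CCT3 ran from -0.039 to 0.30, CCT6A from -0.33 to 0.39 and CCT7 from -0.41 to 0.12. The causes of the other turns were not tested.

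The replicate block called 10 members in SNU-5, 7 in MKN45 and 0 that differed between the lines. Not every array correlated best with its own number. Contrasts between lines could not be fitted with a block that lies within a line.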
